A study of Mus musculus with 16 samples.

Results

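The transcripts described here are those of 8 receptor genes, Ntrk2, Ntrk3, Ngfr, Ret, Gfra1, Gfra2, Gfra3 and Met, which were taken by symbol from the 22609 gene symbols counted in sorted mouse sensory neurons. All 8 passed the filter on low counts in every comparison. RNA was sequenced from Pirt/TdTomato+ cells of 4 sensory ganglia, with 4 libraries each and 16 libraries in all. The ganglia were the trigeminal ganglion (TG), which serves the head, the combined nodose and jugular ganglia (NG/JG), which serve the viscera through the vagus nerve, and the dorsal root ganglia (DRG) of levels L3–L5 and of levels T10-L1, which serve the limb and trunk. Every library came from C57BL/6J mice labelled male and 8 to 12 weeks old that carried Pirt-cre with a Cre-dependent TdTomato reporter in the Rosa26 locus, so a cell was red if Pirt had driven Cre in it at any time. No ganglion was injured or treated, and cells of medium to bright red fluorescence were sorted in 2 rounds. The sources used here do not say which animals gave which library, so the p-values measure the spread between these libraries, which may be technical.

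Neurotrophins are secreted proteins that keep sensory neurons alive and shape what they become. They signal through the Trk receptor tyrosine kinases, TrkB (Ntrk2, for BDNF and NT-4) and TrkC (Ntrk3, for NT-3) among them, while Ngfr encodes p75NTR, a receptor without kinase activity that binds all neurotrophins. Ligands of the GDNF family act through the tyrosine kinase Ret, which they engage once bound to a coreceptor anchored in the membrane, GFRα1 (Gfra1) for GDNF, GFRα2 (Gfra2) for neurturin and GFRα3 (Gfra3) for artemin. Met, the tyrosine kinase receptor for hepatocyte growth factor, belongs to neither family and stands beside them as another growth factor receptor of sensory neurons. In textbook accounts of the DRG, TrkB and TrkC mark touch and position-sensing neurons, Ret with Gfra2 the nonpeptidergic nociceptors, and Gfra3 a large share of the peptidergic ones.

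Libraries held 4735624 to 13333318 reads on genes, so that a count of 3, taken as the floor, was 0.225 to 0.633 CPM (reads per 1000000 reads on genes of that library). All 9 neuron markers checked, Pirt and Tubb3 among them, had reads in every library, and their summed level ran from 1090 to 12438 CPM. Markers of satellite glia summed to 13591 to 64985 CPM, above that level in every library, and those of Schwann cells to 8550 to 54490 CPM. L3–L5 DRG library 4 stood apart, with 66.6% of its uniquely aligned reads outside genes against 29.6% to 51.5% in the other libraries. TG library 1 was unlike the other TG libraries, with reads on 11527 genes against 14441 to 15354. Its neuron markers summed to 1090 CPM against 2423 to 4076 CPM. Its oligodendrocyte markers summed to 1874 CPM against 442 to 737 CPM. Xist, a transcript of female cells, had 1279 to 8362 reads per library, whereas the labels give male mice. In such bulk samples, fewer cells of a type and less RNA per cell cannot be told apart.

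Across the 4 ganglia, Ntrk2 was the one receptor gene called by edgeR, and it was lowest in TG and highest in NG/JG. Ntrk2 lies on the plus strand of chr13:58907957-59235331 (mm9). The L3–L5 DRG libraries 1 to 4 had 357, 223, 256 and 324 CPM of Ntrk2, and the T10-L1 DRG libraries had 624, 475, 371 and 298 CPM. In TG the values were 99.3, 127, 189 and 165 CPM, and in NG/JG they were 559, 491, 763 and 358 CPM. Every TG library was thus below all 12 libraries of the other ganglia, as were 1.38% of the 14236 genes tested, and every NG/JG library was above every L3–L5 DRG library, as were 1.59% of the 12240 genes of that pair on CPM and 2.25% with TMM factors. With TMM factors, which scale for the makeup of a library, the TG libraries still lay below those of NG/JG, as for 3.08% of genes. They also lay below those of the T10-L1 DRG, as for 8.59%, but overlapped those of the L3–L5 DRG. Means fell in the order NG/JG at 543 ± 169 CPM (SD, n = 4), T10-L1 DRG at 442 ± 141 CPM, L3–L5 DRG at 289.8 ± 61.4 CPM and TG at 145 ± 39.9 CPM. Neighbours in that order overlapped apart from the L3–L5 DRG and TG.

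The quasi-likelihood test of edgeR over 16 libraries gave Ntrk2 an adjusted p of 0.0357 for any difference among the ganglia, in a test that called 3.01% of all genes. Gfra2, Ngfr, Ntrk2 and Ret had an unadjusted p under 0.05, 4 of 8 against 17.5% of genes. The call was lost, with adjusted p from 0.0521 to 0.120 in edgeR, when one of L3–L5 DRG libraries 1, 2 or 3, T10-L1 DRG libraries 1, 2 or 3, TG libraries 2, 3 or 4, or NG/JG libraries 1 or 3 was left out. Without NG/JG library 1, edgeR called Ngfr in its place, among 3.97% of all genes. Ngfr and Ret, at adjusted p of 0.0786 and 0.132 in edgeR, missed the threshold across the ganglia, and DESeq2 called them along with Ntrk2, 3 of 8 receptor genes against 12.7% of all genes. A gene count sums the full-length TrkB and the truncated forms that lack the kinase, which satellite glia and astrocytes are known to make, so the counts do not tell them apart. The share of glial RNA in Ntrk2 was not tested, and over the 16 libraries Pearson's r between log2(CPM + 1) of Ntrk2 and of the summed markers was 0.18 for neurons, -0.17 for satellite glia and 0.15 for astrocytes. Other lists had r larger in size with Ntrk2, -0.43 for fibroblasts, -0.39 for immune cells, -0.35 for oligodendrocytes and -0.34 for Schwann cells. For genes of the response to dissociation r was 0.38, and it was -0.01 for mural and 0.04 for endothelial cells.

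**Figure D1:**
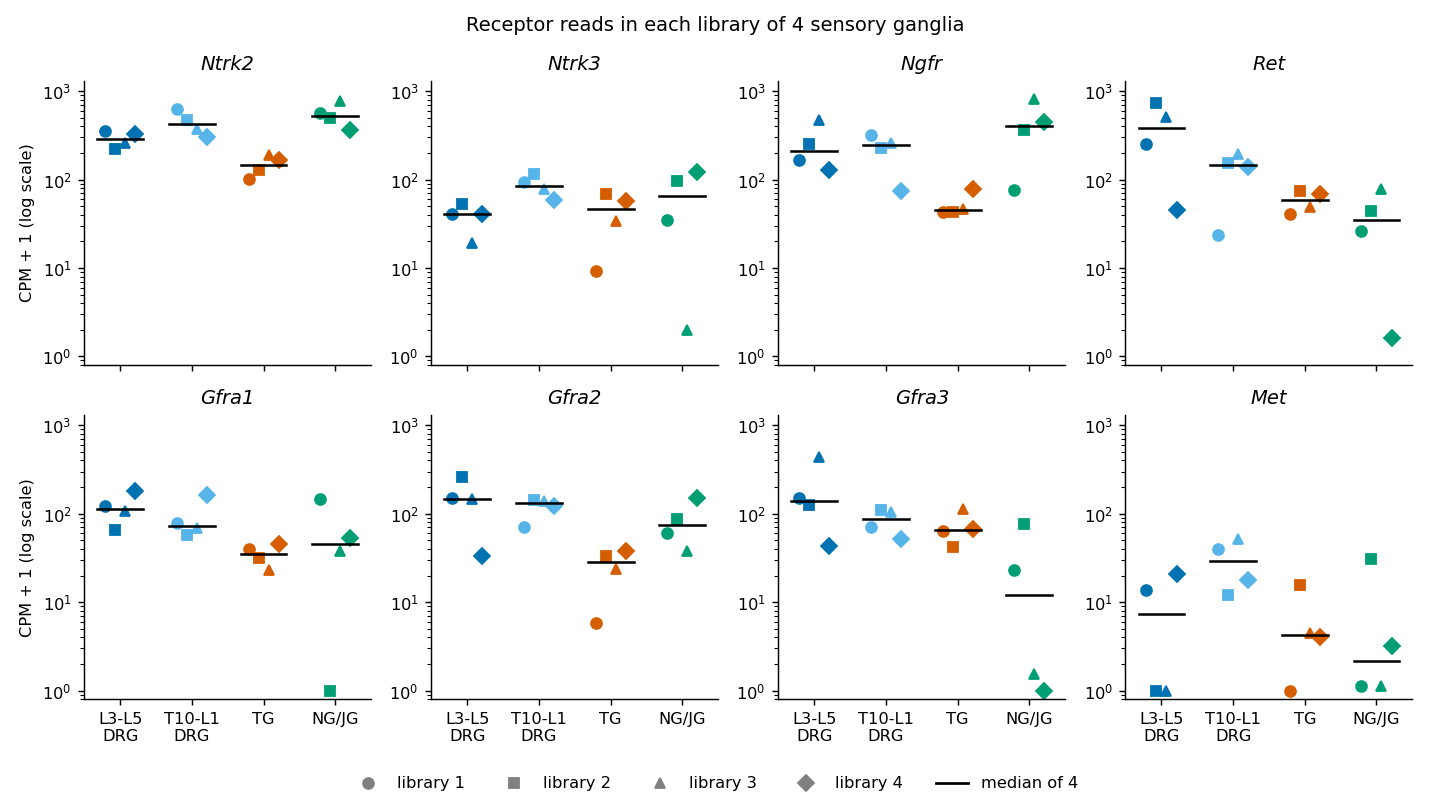
Each panel plots 1 receptor gene, with CPM + 1 on a log axis against the ganglion, a point per library (marker shape gives the library number) and a line at the median of the 4 libraries. Ntrk2 in the TG libraries sits between 99.3 and 189 CPM, below every other library, whereas Ret, Gfra1, Gfra3, Ntrk3 and Met each have single NG/JG libraries near or at 0.

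On CPM, Ntrk3 was higher in every T10-L1 DRG library than in any L3–L5 DRG library, and elsewhere its libraries spread widely. It lies on the minus strand of chr7:85337248-85723294 (mm9). Libraries of the L3–L5 DRG had 40.2, 51.6, 18.0 and 39.5 CPM of Ntrk3, and those of the T10-L1 DRG had 91.9, 115, 76.8 and 56.9 CPM. TG libraries had 8.12, 68.1, 33.3 and 56.7 CPM, and NG/JG libraries had 33.5, 94.0, 0.967 and 119 CPM. The lowest of these, NG/JG library 3, rested on 7 reads, in the library with the highest Ntrk2. Between the DRG levels the groups did not overlap, as for 1.53% of genes in that direction (2.15% with TMM factors), and Ntrk3 was 2.33-fold lower in the L3–L5 DRG (log2 fold change -1.22 ± 0.36 SE), at an unadjusted p of 0.00768 and an adjusted p of 0.785 in edgeR. Per 1000 neuron marker reads these groups overlapped, with 27.0 reads of Ntrk3 in L3–L5 DRG library 4 and 18.7 and 23.4 in T10-L1 DRG libraries 3 and 4. Neighbours in the order of mean CPM, T10-L1 DRG at 85.1 ± 24.5 CPM, NG/JG at 61.9 ± 54.3 CPM, TG at 41.6 ± 26.6 CPM and L3–L5 DRG at 37.3 ± 14.01 CPM (SD, n = 4), all overlapped. Ntrk2 held 59.2% of the summed RPKM (CPM per kilobase of annotated exons) of Ntrk2 and Ntrk3 in TG and 75.1% in NG/JG on average, with ranges of 39.3% to 80.9% and 51.0% to 99.6%, so that these ranges overlapped.

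Ngfr was low in TG and had its highest values in NG/JG. The gene lies on the minus strand of chr11:95430132-95449049 (mm9). Its libraries in the L3–L5 DRG had 165, 252, 475 and 127 CPM and in the T10-L1 DRG 318, 229, 259 and 72.7 CPM. In TG they had 41.8, 42.3, 45.2 and 78.0 CPM, and in NG/JG 74.3, 358, 814 and 443 CPM. TG lay below every L3–L5 DRG library, as for 12% of genes on CPM and 6.84% with TMM factors, but overlapped them per 1000 neuron marker reads. On CPM it overlapped the other ganglia through 1 library each, T10-L1 DRG library 4 and NG/JG library 1. Fitted levels of Ngfr in TG were 7.14-fold lower than in NG/JG (log2 fold change -2.84 ± 0.63 SE, edgeR adjusted p = 0.125), 3.84-fold lower than in the L3–L5 DRG (-1.94 ± 0.49, adjusted p = 0.0860) and 3.24-fold lower than in the T10-L1 DRG (-1.70 ± 0.45, adjusted p = 0.0518). Without NG/JG library 1, edgeR called Ngfr against TG at an adjusted p of 0.0155, among 0.249% of all genes, and without T10-L1 DRG library 4 it did so in that pair at 0.0433, among 0.901%. Means were 422 ± 305 CPM in NG/JG, 255 ± 156 CPM in the L3–L5 DRG, 219.6 ± 105 CPM in the T10-L1 DRG and 51.8 ± 17.5 CPM in TG (SD, n = 4), and all neighbours in that order overlapped.

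Ntrk2 and Ngfr were both lowest on average in TG and highest in NG/JG, with Pearson's r of 0.69 between their log2(CPM + 1) over the 16 libraries, which share ganglia and depths. NG/JG library 3 was the highest library for both. Because they shared that order at its ends, their promoters are shown, 2 of the 4 among the receptor genes for which a sequence was at hand, from 250 bases before to 50 bases after the start of the gene, as RefSeq gives them in GRCm38.p6. Ntrk2 is shown from the plus strand of chr13:58806319-58806618 and Ngfr from the minus strand of chr11:95587649-95587948, with the letters of GC boxes (GGGCGG, or CCGCCC where the box is on the other strand) in capitals.
Ntrk2: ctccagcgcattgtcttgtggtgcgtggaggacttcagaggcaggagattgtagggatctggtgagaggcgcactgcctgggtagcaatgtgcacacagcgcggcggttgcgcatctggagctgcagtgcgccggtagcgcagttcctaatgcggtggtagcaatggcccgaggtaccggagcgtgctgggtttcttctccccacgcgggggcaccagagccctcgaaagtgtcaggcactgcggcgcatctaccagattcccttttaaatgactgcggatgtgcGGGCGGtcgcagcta
Ngfr: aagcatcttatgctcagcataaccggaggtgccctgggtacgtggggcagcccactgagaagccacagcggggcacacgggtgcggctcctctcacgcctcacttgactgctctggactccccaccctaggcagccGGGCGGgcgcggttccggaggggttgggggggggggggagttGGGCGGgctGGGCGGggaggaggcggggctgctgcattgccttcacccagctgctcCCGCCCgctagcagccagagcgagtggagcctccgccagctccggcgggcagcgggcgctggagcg
Both windows are rich in CpG, with 23 CpG each against a median of 7 over 32851 promoters, and their GC contents were 61.3% and 71.7% against a median of 52.7%. Searched on both strands, the GC box was found 1 time in the Ntrk2 window and 4 times in that of Ngfr, and 35.7% of all promoters hold it. The RUNX core TGTGGT was found in the Ntrk2 window and is held by 16.8% of promoters, whereas the SOX core ACAAAG, held by 18.7%, is in neither window. A match is a description of the letters, and the windows and the measured levels were not related by a test.

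Ret was highest in the L3–L5 DRG and lowest in NG/JG, with a wide spread among the libraries of most ganglia. The gene lies on the minus strand of chr6:118101766-118147762 (mm9). L3–L5 DRG libraries had 253, 738, 510.2 and 44.6 CPM of Ret, and T10-L1 DRG libraries had 22.3, 153, 194 and 138 CPM. TG libraries had 40.0, 73.2, 48.5 and 66.9 CPM, and NG/JG libraries had 25.5, 42.8, 76.2 and 0.620 CPM. The 3 highest libraries were all from the L3–L5 DRG, while L3–L5 DRG library 4, T10-L1 DRG library 1 and NG/JG library 4, which had 6 reads, stood far below their groups. Means were 386 ± 302 CPM in the L3–L5 DRG, 127 ± 73.5 CPM in the T10-L1 DRG, 57.1 ± 15.5 CPM in TG and 36.3 ± 31.7 CPM in NG/JG (SD, n = 4), with overlap between all neighbours. The fitted level of Ret in NG/JG was 10.2-fold lower than in the L3–L5 DRG (log2 fold change -3.36 ± 1.15 SE, edgeR unadjusted p = 0.0149, adjusted p = 0.483). Without NG/JG library 3 that log2 fold change was -4.01, and over the libraries left out in turn it ran from -4.01 to -2.82. Its level in TG was 5.23-fold lower than in the L3–L5 DRG (-2.39 ± 0.71 SE, unadjusted p = 0.00645, adjusted p = 0.115).

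The level of Ret was set against the neuron RNA of each library. In the L3–L5 DRG the summed neuron markers were 4129, 10755, 12438 and 1464 CPM in libraries 1 to 4. The library with the least Ret thus also had the least neuron RNA by these markers. Single markers can differ between ganglia. Avil had 82.6 to 1060 CPM in the L3–L5 DRG and 36.6 to 132 CPM in NG/JG, whereas Snap25 had 284 to 1524 and 363 to 1309 CPM. A scale built on their sum carries such differences. Per 1000 reads on the 9 neuron markers, a scale chosen after the values were seen, Ret had 61.2, 68.6, 41.0 and 30.4 reads in the L3–L5 DRG and 15.4, 7.76, 13.8 and 0.170 reads in NG/JG. On that scale these ganglia did not overlap, with NG/JG below the L3–L5 DRG as for 3.48% of genes. TG had 36.7, 30.2, 11.9 and 21.8 reads of Ret per 1000 neuron marker reads and overlapped both, and T10-L1 DRG libraries had 9.34, 38.7, 47.1 and 56.9. Over the 16 libraries, which share ganglia and depths, Pearson's r between Ret and the summed neuron markers on the log2 scale was 0.51, and it was 0.63 for Ngfr, 0.65 for Gfra2, 0.20 for Gfra3, -0.21 for Met and -0.22 for Gfra1. Other marker lists had r larger in size with some of them. Ngfr had -0.83 with fibroblast, -0.77 with immune and -0.71 with Schwann cell markers, and Gfra2 had -0.85 with oligodendrocyte and -0.79 with Schwann cell markers. Met had 0.64 with mural and 0.51 with endothelial cell markers, and Gfra3 had 0.59 with mural cell markers. Ret had -0.62 with genes of the response to dissociation, which summed to 2723 to 14145 CPM in the L3–L5 DRG and 15226 to 51890 CPM in NG/JG. The part of these cells and of that response in the receptor levels was not tested.

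**Figure D2:**
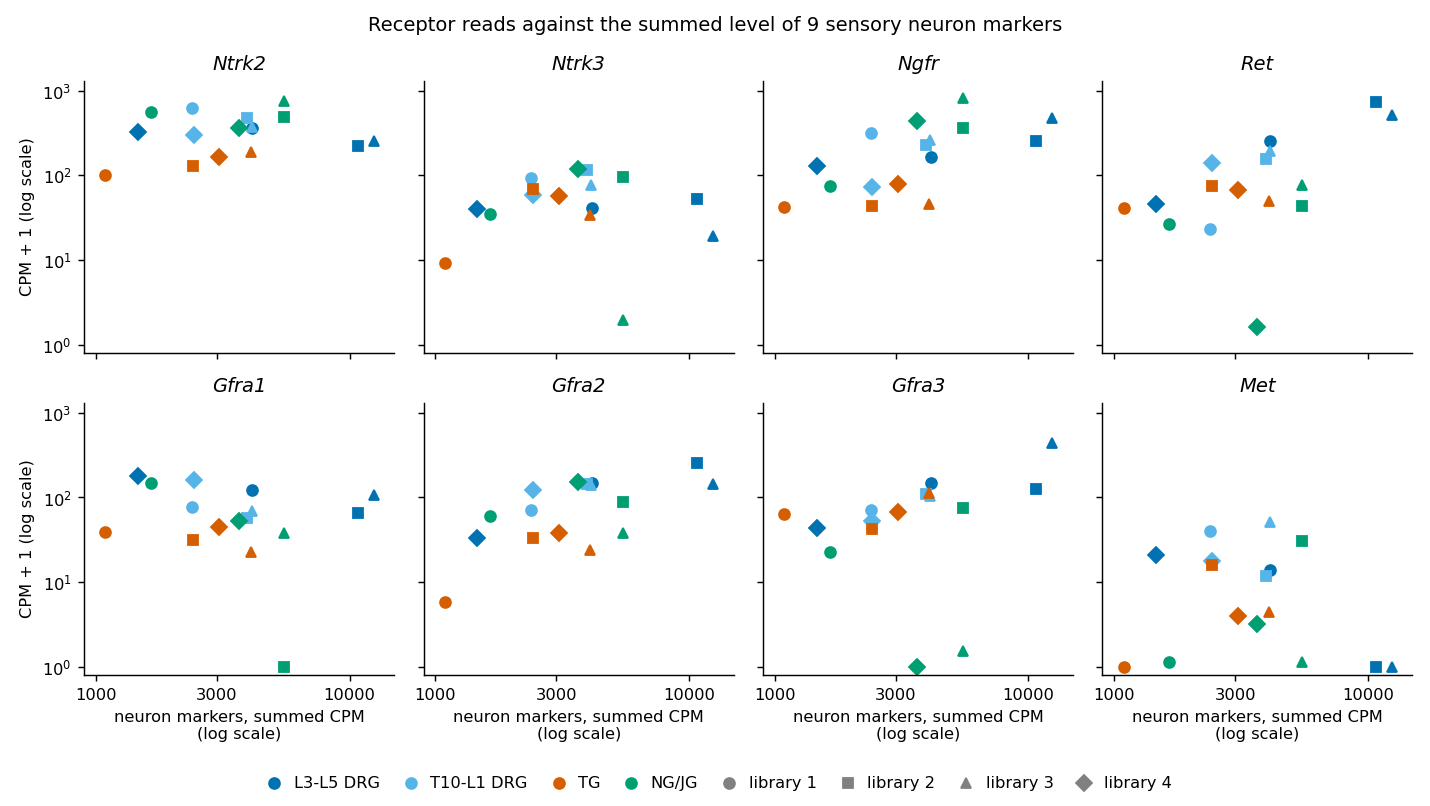
Each panel plots CPM + 1 of 1 receptor gene on a log axis against the summed CPM of 9 sensory neuron markers in the same library, also on a log axis, with colour for the ganglion and shape for the library number. Ret and Gfra2 tend to be higher where the neuron markers are higher, whereas r was 0.18 for Ntrk2 and -0.22 for Gfra1, and NG/JG libraries 3 and 4 had 4 and 0 reads of Gfra3.

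The coreceptor genes differed from one another in where they were high. Gfra1, on the minus strand of chr19:58310094-58530399 (mm9), had 122, 63.7, 105 and 179 CPM in the L3–L5 DRG libraries and 76.7, 55.9, 68.4 and 161 CPM in the T10-L1 DRG libraries. It had 38.5, 30.3, 22.0 and 43.9 CPM in TG and 147, 0, 37.0 and 52.3 CPM in NG/JG. Every TG library was below every DRG library, as for 12% of genes against the L3–L5 DRG and 13.2% against the T10-L1 DRG. With TMM factors this held against the L3–L5 DRG alone, as for 6.84%, and per 1000 neuron marker reads TG overlapped both. NG/JG spanned nearly the whole range. The 0 of NG/JG library 2 allows up to 0.341 CPM at a floor of 3 counts, which covers counting error only. Of the exon sequence of Gfra1, 7.60% overlaps Gm16277 on the other strand, and the strand setting of the counting is not stated. Means of Gfra1 were 117 ± 47.8 CPM in the L3–L5 DRG, 90.5 ± 47.8 CPM in the T10-L1 DRG, 59.1 ± 62.6 CPM in NG/JG and 33.7 ± 9.58 CPM in TG (SD, n = 4), and neighbours overlapped. It was 2.69-fold lower in TG than in the L3–L5 DRG (log2 fold change -1.43 ± 0.42 SE, edgeR unadjusted p = 0.00578, adjusted p = 0.110).

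Gfra2, on the plus strand of chr14:71289927-71379645 (mm9), was lowest in TG. L3–L5 DRG libraries had 149, 256, 144 and 32.3 CPM, and T10-L1 DRG libraries had 69.9, 144, 138 and 122 CPM. TG libraries had 4.82, 32.7, 22.9 and 36.9 CPM, and NG/JG libraries had 60.0, 86.7, 36.8 and 150.4 CPM. TG lay below every T10-L1 DRG library, as for 13.2% of genes, and touched the ranges of the other ganglia only through L3–L5 DRG library 4 and NG/JG library 3. The separation from the T10-L1 DRG held with TMM factors, as for 8.59% of genes, and also per 1000 neuron marker reads, as for 6.7%. On that last scale TG had 4.43 to 13.5 reads of Gfra2 and the T10-L1 DRG 29.2 to 50.1. Means were 145 ± 91.5 CPM in the L3–L5 DRG, 118 ± 33.6 CPM in the T10-L1 DRG, 83.5 ± 49.1 CPM in NG/JG and 24.3 ± 14.3 CPM in TG (SD, n = 4). Fitted levels in TG were 4.50-fold lower than in the L3–L5 DRG (log2 fold change -2.17 ± 0.74 SE, edgeR adjusted p = 0.152) and 3.67-fold lower than in the T10-L1 DRG (-1.87 ± 0.59 SE, adjusted p = 0.0893). Without TG library 1, which had the least Gfra2 and the least neuron RNA, edgeR called Gfra2 against the T10-L1 DRG at an adjusted p of 0.00769, among 26.7% of all genes.

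Gfra3, on the minus strand of chr18:34849557-34880041 (mm9), had similar ranges in TG and the T10-L1 DRG and was near or at 0 in some NG/JG libraries. Its libraries had 149, 126, 443 and 42.4 CPM in the L3–L5 DRG and 70.0, 110.1, 104 and 51.3 CPM in the T10-L1 DRG. TG libraries had 62.2, 41.3, 111 and 65.9 CPM, and NG/JG libraries had 21.8, 74.9, 0.553 and 0 CPM. TG and both DRG levels overlapped throughout, while NG/JG libraries 3 and 4 had 4 reads and none, the latter allowing up to 0.310 CPM. Per 1000 neuron marker reads all NG/JG libraries, at 0 to 13.6 reads of Gfra3, were below all TG libraries, at 17.0 to 57.1, and below all T10-L1 DRG libraries, at 21.1 to 29.3. So were 8.62% of genes for the former pair and 6.56% for the latter. Mean levels were 190.0 ± 175 CPM in the L3–L5 DRG, 83.8 ± 27.9 CPM in the T10-L1 DRG, 70.1 ± 29.4 CPM in TG and 24.3 ± 35.2 CPM in NG/JG (SD, n = 4). The fitted difference between NG/JG and the L3–L5 DRG, -2.91 ± 1.57 (log2, SE), had an unadjusted p of 0.0931 in edgeR.

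On RPKM, which allows genes to be compared, Gfra3 was the highest coreceptor in all 4 TG libraries. There it held 78.8%, 58.3%, 84.1% and 64.1% of the summed RPKM of Gfra1, Gfra2 and Gfra3. In the T10-L1 DRG it led in 3 libraries with shares of 50.2% to 52.0%, and Gfra2 led in the fourth. The L3–L5 DRG and NG/JG had no common leader. Gfra3 led in L3–L5 DRG libraries 1 and 3, Gfra2 in library 2 and Gfra1 in library 4, whereas in NG/JG the leaders were Gfra1 in library 1, Gfra3 in library 2 and Gfra2 in libraries 3 and 4. The share of Gfra3 in NG/JG ran from 0% to 60.4%, and the lowest share in TG, 58.3%, lay within that range.

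**Figure D3:**
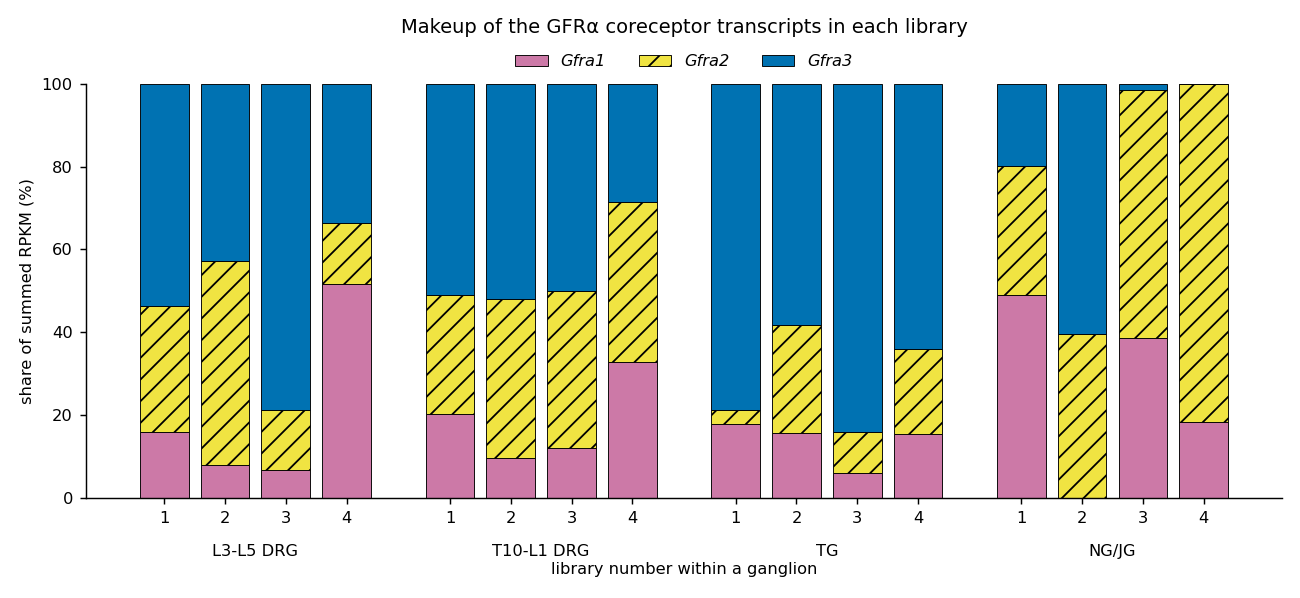
Stacked bars show, for each of the 16 libraries, the share in percent of the summed RPKM of the GFRα coreceptor genes held by Gfra1, Gfra2 and Gfra3. Gfra3 holds the largest share in all 4 TG libraries, at 58.3% to 84.1%, while each of the NG/JG libraries has its own makeup, from no Gfra1 in library 2 to no Gfra3 in library 4.

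Compared between genes on RPKM from the union of exons, Gfra3 and Ngfr had the highest means in the DRG and TG, with 95.4 ± 87.6 and 73.9 ± 45.2 RPKM in the L3–L5 DRG, 42.1 ± 14.01 and 63.7 ± 30.4 RPKM in the T10-L1 DRG, and 35.2 ± 14.8 and 15.0 ± 5.08 RPKM in TG (SD, n = 4). In NG/JG, Ngfr at 123 ± 88.5 RPKM and Ntrk2 at 36.0 ± 11.2 RPKM came first, and Ret at 4.94 ± 4.32 RPKM came seventh of the 8 genes. The order depends on the length taken for Ntrk2, 15094 bases as the union of exons and 8541 as the longest transcript. With the latter, Ntrk2 stood at 51.7 ± 16.5 RPKM in the T10-L1 DRG, above Gfra3, and at 16.99 ± 4.67 RPKM in TG, above Ngfr. The leading coreceptor was the same with either length in 16 of 16 libraries. The summed RPKM of the coreceptors exceeded that of Ret in every library, by 1.47 to 22.7 times outside NG/JG library 4, in which Ret was near 0.

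Met had few reads in most libraries. It lies on the plus strand of chr6:17413800-17523980 (mm9). L3–L5 DRG libraries had 12.8, 0, 0 and 19.6 CPM, and T10-L1 DRG libraries had 39.0, 10.9, 50.4 and 16.9 CPM. TG libraries had 0, 14.8, 3.44 and 2.99 CPM, and NG/JG libraries had 0.139, 29.5, 0.138 and 2.17 CPM. The T10-L1 DRG was the one ganglion with Met above 10 CPM in every library, and 3 libraries, L3–L5 DRG libraries 2 and 3 and TG library 1, had none, at floors of 0.298, 0.247 and 0.381 CPM. The mean was 29.3 ± 18.5 CPM in the T10-L1 DRG and 8.12 ± 9.78, 7.98 ± 14.4 and 5.29 ± 6.49 CPM in the L3–L5 DRG, NG/JG and TG (SD, n = 4), with overlap between neighbours. Errors of its fitted differences were 1.23 to 2.26 on the log2 scale, and its unadjusted p in edgeR was above 0.1 in each of the 6 pairs. Met reached 1.03 RPKM in NG/JG and 3.79 RPKM in the T10-L1 DRG, the lowest of the 8 genes in every ganglion.

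The comparison of ganglia in pairs asked which receptor genes separate one sensory field from another. TG had the lower fitted level for most of them, 7 of 8 against the L3–L5 DRG, 7 of 8 against the T10-L1 DRG and 6 of 8 against NG/JG. Those counts include differences smaller than their SE, such as Met at -0.11 ± 1.96 against the L3–L5 DRG and -0.26 ± 2.03 against NG/JG (log2, SE). The median log2 fold change of the 8 genes was -1.26, -1.16 and -0.53 in these pairs, and that of all genes tested was -0.03, -0.03 and -0.05. These pairs share the TG libraries, in which the neuron markers summed to 1090, 2423, 4076 and 3070 CPM and the satellite glia markers to 34988 to 64985 CPM, against 13591 to 46945 CPM elsewhere. Oligodendrocyte markers, of which at least 3 of 4 had reads in each TG library, summed to 442 to 1874 CPM in TG and to 53.1 to 550.3 CPM in the other ganglia. The part of these cells in the low receptor levels of TG was not tested. Per 1000 neuron marker reads Ntrk2 was 60.9 ± 20.3 in TG, 87.2 ± 94.6 in the L3–L5 DRG, 148 ± 76.4 in the T10-L1 DRG and 166 ± 117 in NG/JG (SD, n = 4), and TG overlapped each of them. TMM factors computed over all 16 libraries raised TG against the L3–L5 DRG, the T10-L1 DRG and NG/JG by 0.42, 0.35 and 0.27 (log2) relative to CPM. The fits of pairs used factors computed anew on their 8 libraries, so the shift within them can differ from these values.

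Against the L3–L5 DRG, edgeR called 0 of the 8 receptor genes at an adjusted p under 0.05 and 0% of all 12900 genes. At an unadjusted p under 0.05 it found Gfra1, Gfra2, Ngfr and Ret, 4 of 8 against 18.2% of genes, and DESeq2 called the same 4 against 11.3%. Non-overlapping libraries, lower in TG, were found for Ntrk2, Ngfr and Gfra1, 3 of 8 against 12% of genes, and with TMM factors for Ngfr and Gfra1 against 6.84%. Per 1000 neuron marker reads all 8 receptor genes overlapped in this pair. Without TG library 1, edgeR called Gfra1 (adjusted p = 0.0462) and Ngfr (adjusted p = 0.0468), 2 of 8 where it called 15.2% of all genes.

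Against the T10-L1 DRG, edgeR called 0 of 8 receptor genes and 5.87% of all genes. The unadjusted p was under 0.05 for Gfra1, Gfra2, Ngfr and Ntrk2, 4 of 8 against 21.6% of genes, and DESeq2 called Gfra2, Ngfr and Ntrk2 against 15%. Ntrk2 was 2.32-fold lower in TG in this pair (log2 fold change -1.21 ± 0.33 SE, edgeR adjusted p = 0.0598), and Gfra3 differed by 0.12 ± 0.39 (log2, SE). Libraries did not overlap, with TG lower, for Ntrk2, Gfra1 and Gfra2, 3 of 8 against 13.2% of genes, or for Ntrk2 and Gfra2 against 8.59% with TMM factors. Per 1000 neuron marker reads this was so for Gfra2 alone, against 6.7%. Without TG library 1 edgeR called Gfra2, Ngfr (adjusted p = 0.0286) and Ntrk2 (adjusted p = 0.0192), 3 of 8 where it called 26.7% of all genes.

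Against NG/JG, edgeR called 0 of 8 and 0.051% of all genes. Ngfr and Ntrk2 had unadjusted p under 0.05, 2 of 8 against 10% of genes, and DESeq2 called both, against 6.39%. Ntrk2 was 3.21-fold lower in TG (log2 fold change -1.68 ± 0.38 SE, edgeR adjusted p = 0.127), without overlap between the libraries, as for 4.49% of genes lower in TG. Without TG library 1 the adjusted p of Ntrk2 in edgeR was 0.0439, and 2.58% of all genes were called. With the neuron markers as the scale, the genes without overlap were Ngfr, lower in TG as were 1.1% of genes, and Gfra3, higher in TG as were 8.62%.

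In NG/JG against the L3–L5 DRG, edgeR called 0 of 8 receptor genes and 0% of all genes, and DESeq2 called 0 of 8 against 4.82% of genes. At an unadjusted p under 0.05 edgeR found Ntrk2 and Ret, 2 of 8 against 6.04%, with Ntrk2 2.03-fold higher in NG/JG (log2 fold change 1.02 ± 0.33 SE, adjusted p = 0.408). Against the T10-L1 DRG, 0 of 8 were called by edgeR, 0 of 8 by DESeq2 and 0 of 8 had an unadjusted p under 0.05, where 0.0322%, 6.14% and 5.91% of all genes did. The fitted differences there ran from -1.84 ± 1.61 (SE) for Met to 1.04 ± 0.64 for Ngfr on the log2 scale.

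Between the L3–L5 and T10-L1 DRG, edgeR called 0 of 8 and 0% of all genes, and DESeq2 called 0 of 8 and 0.488%. Ntrk2 and Ntrk3 had unadjusted p under 0.05 in edgeR, 2 of 8 against 6.07% of genes, both lower in the L3–L5 DRG. Ret and Gfra3 pointed the other way, with log2 fold changes of 1.59 ± 0.82 and 1.18 ± 0.62 (SE) at unadjusted p of 0.0839 and 0.0875 in edgeR. In Ngfr, Ret, Gfra2 and Gfra3 the lowest L3–L5 DRG library was library 4, the one with the least neuron RNA, whereas that library was the highest of its group for Gfra1 and Met.

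**Figure D4:**
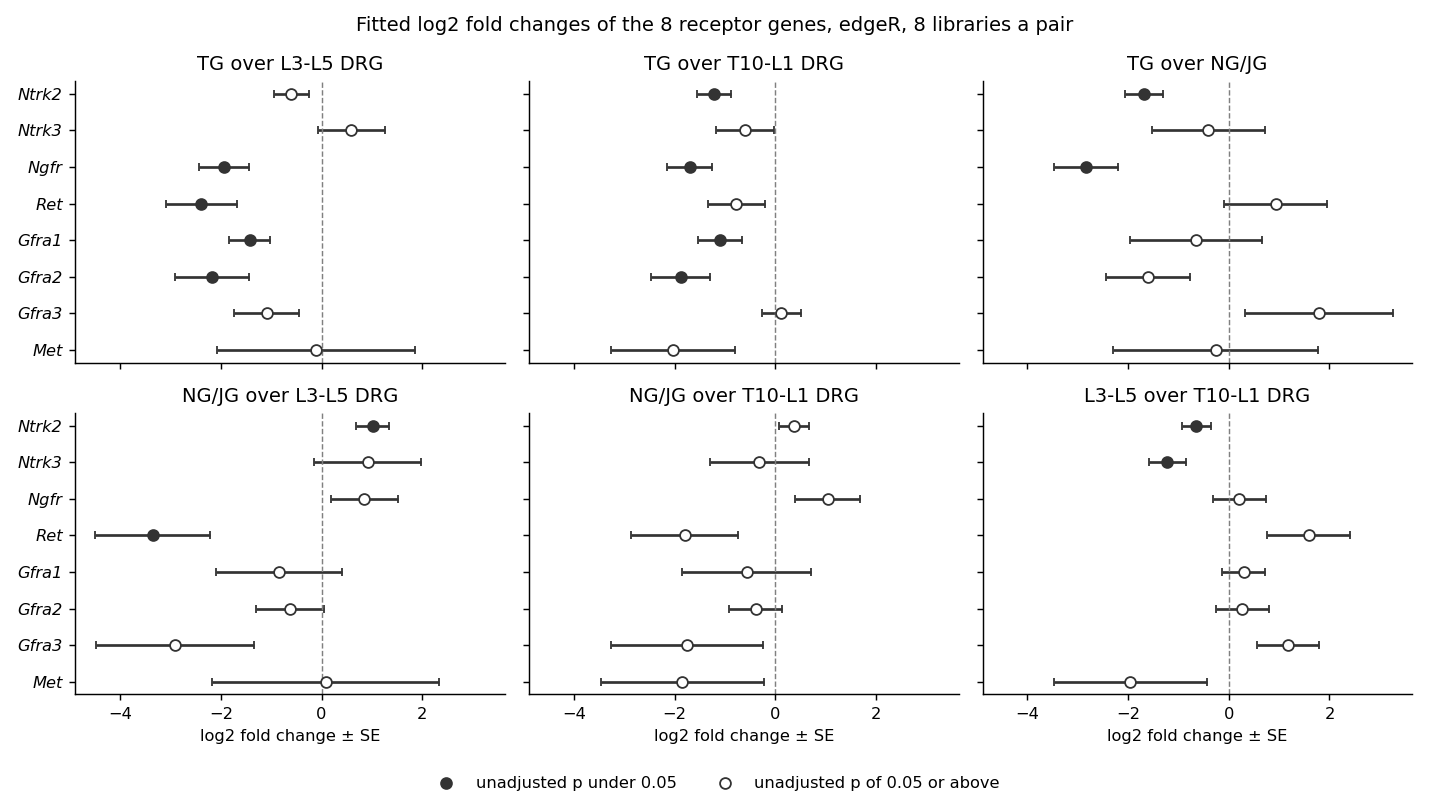
Points give the log2 fold change of each receptor gene, from edgeR on the 8 libraries of each pair of ganglia. Bars give its SE, derived from the F statistic, and filled points mark an unadjusted p under 0.05. In the TG panels most points lie left of 0, down to -2.84 ± 0.63 for Ngfr against NG/JG, and no point passed an adjusted p of 0.05.

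NG/JG was also set against the mean of the 3 other ganglia over all 16 libraries, since it is the one ganglion here that serves mainly the viscera. At the adjusted threshold edgeR called 0 of 8 receptor genes and 0.829% of all genes. Ngfr was 2.91-fold higher in NG/JG (log2 fold change 1.54 ± 0.44 SE, edgeR adjusted p = 0.0935), Ntrk2 2.00-fold higher (1.00 ± 0.26, adjusted p = 0.0688) and Ret 4.16-fold lower (-2.06 ± 0.83, adjusted p = 0.197), the last at -2.70 without NG/JG library 3. These were the 3 of 8 with an unadjusted p under 0.05, against 17.1% of genes, and DESeq2 called Ngfr and Ntrk2 against 10.5%. Without NG/JG library 1 edgeR called Ngfr at an adjusted p of 0.0188, among 3.64% of all genes, and without TG library 1 it called Ntrk2 at 0.0363, among 2.76%. Each of the comparisons with NG/JG rests on the same 4 NG/JG libraries.

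Other genes of these pathways were taken as lists, and their counts stand against the shares of all genes given above, 5.91% to 21.6% at an unadjusted p under 0.05 in edgeR and 0.488% to 15% called by DESeq2. Most ligands had few reads. Of 10 ligand genes, Bdnf, a ligand of TrkB, had the highest mean over the 16 libraries, with 30.3 ± 17.0 CPM in the L3–L5 DRG, 25.8 ± 19.7 CPM in NG/JG, 14.2 ± 7.23 CPM in the T10-L1 DRG and 13.1 ± 9.51 CPM in TG (SD, n = 4). Gdf15, a stress-induced factor that acts through a Ret coreceptor of the hindbrain, was above Bdnf in the T10-L1 DRG at 21.3 ± 15.6 CPM and in TG at 22.0 ± 14.5 CPM, and had 4.17 ± 7.99 and 5.48 ± 9.49 CPM in the L3–L5 DRG and NG/JG. Gdnf had at most 7 reads in a library, Pspn 12, Nrtn 12 and Artn 28, so the GFRα ligands were at or near 0. Among the 1 to 5 ligand genes that passed the filter, edgeR called 0 in every comparison, and at most 1 had an unadjusted p under 0.05. DESeq2, which tested 4 to 8 of them, also called 0 in every comparison.

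Other receptors and coreceptors, 19 genes of which edgeR tested 16 or 17, gave 0 calls in edgeR in each of the 8 comparisons. They gave 1 to 3 in DESeq2 in all but that of the DRG levels, with 1 to 4 at an unadjusted p under 0.05 in edgeR. The highest of them, Ncam1, an adhesion molecule that can also bind GDNF, had 395 ± 37.8 CPM in TG, 688 ± 157 CPM in the L3–L5 DRG, 912 ± 73.5 CPM in NG/JG and 1028 ± 325 CPM in the T10-L1 DRG (SD, n = 4). Maged1, an adaptor that binds p75NTR, likewise was lowest in TG, at 169.8 ± 49.3 CPM against 379 ± 66.5 CPM in the T10-L1 DRG and 567 ± 329 CPM in NG/JG. Of 31 adaptors and effectors, 24 to 30 of them tested by edgeR, it called 0 in every comparison and DESeq2 0 to 3. In edgeR 0 to 6 had an unadjusted p under 0.05. The feedback regulators Dusp6 and Spry2 were the highest of these, with 423 ± 96.0 and 332 ± 140.1 CPM in the T10-L1 DRG, 408 ± 246 and 449.6 ± 269 CPM in NG/JG, 220.4 ± 186 and 138 ± 87.0 CPM in the L3–L5 DRG and 147 ± 165 and 179 ± 75.5 CPM in TG. Of 12 transcription factors of receptor-defined neuron classes, 9 or 10 of them tested by edgeR, it called 0. DESeq2 called 2, in the comparison of NG/JG with the other ganglia, and 0 to 3 had an unadjusted p under 0.05 in edgeR. Zeb2 and Klf7, the highest of them, had 200.2 ± 153 and 174.0 ± 89.0 CPM in TG.

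Of 19 marker genes of the neuron classes that these receptors define, edgeR tested 13 to 17 in a comparison. It called 3 across the ganglia and for NG/JG against the others, where it called 3.01% and 0.829% of all genes, all 3 lower in NG/JG. In each pair it called 0, where 4 to 7 had an unadjusted p under 0.05 and DESeq2 called 0 to 6. Calcb, a CGRP gene of peptidergic neurons, had 2.01 ± 1.80 CPM in NG/JG against 80.2 ± 33.7 CPM in TG, 125 ± 40.3 CPM in the T10-L1 DRG and 163 ± 142 CPM in the L3–L5 DRG. Its log2 fold change for NG/JG against the mean of the others was -5.94 ± 0.83 (SE, edgeR adjusted p = 0.00204). Mrgprd, the receptor of nonpeptidergic nociceptors, which carry Ret and Gfra2, had 0.880 ± 0.739 CPM in NG/JG and 389 ± 327 CPM in the L3–L5 DRG. It had 170 ± 118 CPM in the T10-L1 DRG and 23.7 ± 20.2 CPM in TG. For NG/JG against the mean of the others its log2 fold change was -7.13 ± 1.27 (SE, edgeR adjusted p = 0.0135). Pvalb, a marker of proprioceptors, which carry Ntrk3, had 0.0693 ± 0.0801 CPM in NG/JG and 58.8 ± 60.9 CPM in TG. It had 13.7 ± 20.3 CPM in the T10-L1 DRG and 7.92 ± 7.18 CPM in the L3–L5 DRG. The authors likewise report Pvalb as high in TG neurons and lacking in NG/JG, although they state that TG has no proprioceptors. For NG/JG against the mean of the others the log2 fold change of Pvalb was -7.91 ± 1.62 (SE, edgeR adjusted p = 0.0268). As all 4 NG/JG libraries were at the floor, that fitted value is no bound. In the same NG/JG libraries Gfra2 had 36.8 to 150.4 CPM and Ntrk3 0.967 to 119 CPM, and the difference between the changes of markers and receptors was not tested. The highest class markers by mean, Calca and Tac1, which encode the peptides CGRP and substance P, had 68.4 ± 96.2 and 37.6 ± 46.0 CPM in NG/JG against 1889 ± 1552 and 825 ± 702 CPM in the L3–L5 DRG, and edgeR called neither.

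For each receptor gene, the genes with the most similar pattern were sought by Pearson's r of log2(CPM + 1) over the 16 libraries, among 11830 genes with a mean of at least 5 CPM. Closest to Ntrk2 were Lonp2 (r = 0.92), Ss18 (0.92) and Ptprz1 (0.91). Ngfr was followed by Ehd3 (0.93), Sh3yl1 (0.90) and Hk1 (0.90). Those of Ret were Pitpnc1 (0.98), AI646023 (0.96) and Rph3a (0.95), and those of Gfra3 were Ubfd1 (0.96), Calca (0.95) and Elovl7 (0.95). Calca had means of 1889 CPM in the L3–L5 DRG, 909 CPM in TG, 853 CPM in the T10-L1 DRG and 68.4 CPM in NG/JG. For Gfra2 they were Fam188a (0.90), Prkag2 (0.90) and Nedd4l (0.89), and for Gfra1 Ganab (0.94), Med22 (0.93) and Spcs3 (0.93). Ntrk3 had Med13 (0.90), Fam101a (0.89) and Plagl2 (0.88), and Met had Slc16a13 (0.90), Cyp2d22 (0.90) and Akr1b8 (0.88). Libraries share ganglia, depth and the amount of neuron RNA, and the lists depended on the measure. By Spearman's rho, 3 of the 3 genes were shared for Ngfr, 1 each for Ntrk2, Gfra2 and Met, and 0 for Ntrk3, Ret, Gfra1 and Gfra3. High values of r among so many genes and few libraries are given as a description. Among the receptor genes themselves the highest r were 0.70 for Ret with Gfra3, 0.69 for Ntrk2 with Ngfr and 0.61 for Ntrk3 with Met.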

How the data were processed

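Cells of the 4 ganglia were compared over 16 libraries, 4 for each ganglion, grouped by the labels. The authors made cDNA by oligo dT priming and SMART-seq2, sequenced single 50-base reads, mapped them to mm9 by TopHat2 and obtained read numbers for each gene by HTSeq-count. What they deposited are raw counts, one value per gene symbol. Versions, annotation and strand setting were not given in the sources used here. Reads assigned to no gene, 29.6% to 66.6% of uniquely aligned reads, were left out of totals and tests.

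Counts were tested with the quasi-likelihood test of edgeR 4.0.16 in R 4.3.3 (TMM factors, filterByExpr, group as the only term, Benjamini-Hochberg adjustment over all genes tested), for 6 pairs on 8 libraries each, and over 16 libraries for any difference and for NG/JG against the mean of the others. DESeq2 1.42.0, RLE factors, no filter, 1 fit of 16 libraries, a replicate block and leaving out each library were alternatives, and a scale of 9 neuron markers was added after the data were seen. The SE of an edgeR difference was derived as the size of its log2 fold change over the square root of its F statistic. RPKM used the union of exons of GENCODE mouse release 1 (mm9). Code was tested on simulated data. Genes named beyond the receptors were those called in a fixed list, the 2 highest of each list and the 3 most like each receptor gene. Members and lists were chosen with earlier results of these data known. Python 3.11.15 drew the figures.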

Additional observations from a re-analysis of the deposited data

Results flagged for a closer look

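Each of the 8 receptor genes was checked in each ganglion for a library far from the other 3, in 32 groups of 4 libraries. The gap of the extreme library to its neighbour, as a share of the whole range, passed Dixon's 95% critical value in 2 of them, and chance alone flags about 1 in 20 such groups. Ngfr had 78.0 CPM in TG library 4, while TG libraries 1 to 3 had 41.8, 42.3 and 45.2 CPM. Met had 29.5 CPM in NG/JG library 2, while the other NG/JG libraries had 0.139, 0.138 and 2.17 CPM.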

How the results depend on the processing

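The number of receptor genes called moved with the test. None of the 242 refits of the 17 differences with an unadjusted p under 0.05 reversed a direction. Those differences were picked from the same libraries, and each refit reuses most or all of them, so this says little about stability. Among the other differences, some directions reversed with the replicate block. Gfra1 in TG against NG/JG went from -0.65 to 0.20 on the log2 scale. Ntrk3 in NG/JG against the L3–L5 DRG went from 0.92 to -0.05. DESeq2 called 2 genes in TG against NG/JG, 4 against the L3–L5 DRG and 3 against the T10-L1 DRG, 3 across the ganglia and 2 for NG/JG against the others, where edgeR called 0, 0, 0, 1 and 0. With no filter on low counts edgeR called 1 gene in TG against NG/JG (Ngfr) and 2 against the T10-L1 DRG (Ngfr and Ntrk2), with RLE factors 1 in the latter pair (Ngfr), and with all 16 libraries in one fit 2 in TG against NG/JG. Leaving out 1 library gave 0 to 1 genes in TG against NG/JG, 0 to 2 against the L3–L5 DRG, 0 to 3 against the T10-L1 DRG, 0 to 1 across the ganglia and 0 to 1 for NG/JG against the others. Over all genes the edgeR calls ran from 0 to 3583 in TG against the T10-L1 DRG and from 33 to 1035 across the ganglia. The causes were not tested.

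The labels number the libraries 1 to 4 in every ganglion. In no pair of ganglia did all same-numbered libraries deviate together with r over 0.1. The mean r of same-numbered libraries was above that of other-numbered ones in every pair, at 0.12 against -0.04 for the L3–L5 DRG with NG/JG. Whether equal numbers share an animal or a day cannot be told from these values. With the replicate number as a block, edgeR called 0 receptor genes across the ganglia (Ntrk2 adjusted p = 0.0823) and 0 in the other comparisons.

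Met in 5 libraries, and Gfra1, Gfra3, Ntrk3 and Ret in some NG/JG libraries, rested on 7 reads or fewer, and the shallowest library, L3–L5 DRG library 4, was not among these. RPKM from the longest transcript moved 6 of 32 mean levels, those of Ntrk2 in all 4 ganglia and of Ntrk3 in both DRG levels, by more than 1 SD.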
